A study of Mus musculus with 2 samples.

Results

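The genes described here encode the constitutive proteasome of mouse colon epithelial cells, with its assembly chaperones, its inhibitor and its activators other than those induced by interferon. The choice was made by gene symbol, with earlier results of these data known. It took in every probe set whose single symbol starts with Psma, Psmb, Psmc, Psmd, Psmf or Psmg followed by a number. Psme3 and Psme4 were added, and the interferon-induced subunits Psmb8, Psmb9 and Psmb10 were left out. This gave 42 of the 8721 named genes, on 72 of 14049 named probe sets, and each gene was read from its brightest probe set, by mean log2 signal over both arrays. Of the 42 genes, 41 were above a signal floor of 232, the 40th percentile of all signals, on both arrays. The other one, Psmc3ip, was under it on both, at 162 and 141, and was not assessed. Its product is a meiotic recombination factor named for binding a proteasome ATPase, so it shares the name only.

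The cells came from C57BL/6 mice, an inbred strain, aged 7 weeks, and were kept with PBS (buffered saline) or with MIF, read here as the cytokine macrophage migration inhibitory factor. One array was made of each incubation. For dose, duration, animal numbers and cell isolation, nothing is given in the sources used here. With 1 array a group there was no replicate check, so no difference below has a test or a p-value, and precision is limited by the number of arrays.

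The proteasome is the cell's main protease for proteins tagged with ubiquitin. Its barrel-shaped core particle is made of rings of alpha subunits, which gate the entrance, around rings of beta subunits, some of which carry the proteolytic sites. A regulatory particle caps the core. Its base holds a ring of ATPases that unfold the substrate, and its lid removes the ubiquitin chain. In cells exposed to interferon, the catalytic beta subunits are replaced in newly built cores by induced counterparts, and the resulting immunoproteasome favours peptides for MHC class I. Colon epithelium renews continuously and expresses both sets of subunits.

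The proteasome genes had slightly lower signals on the MIF array, nearly all by less than 1.2-fold. Of the 41 assessed genes, 32 were lower and 9 higher, against 53.3% lower among all 5837 genes assessed. Their median log2 difference, MIF minus PBS, was -0.13, against -0.01 over all genes assessed. It ran from -0.31 for the deubiquitinase gene Psmd14 to 0.28 for the activator gene Psme3. Psmd14 and Psmd9, which encodes an assembly chaperone, were at least 1.2-fold lower (6.29% of all genes assessed were), and Psme3 was at least 1.2-fold higher (6.82% of all genes). No member reached 1.5-fold in either direction, as 1.1% of all genes did. With each array centred on its median, the 1.2-fold counts were 4 lower and 0 higher in place of 2 and 1. The share of all genes at 1.2-fold was not taken in that setting, so these counts have no background beside them. By any amount, 85.4% of the members and 62.1% of all genes assessed were lower there.

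**Figure D1:**
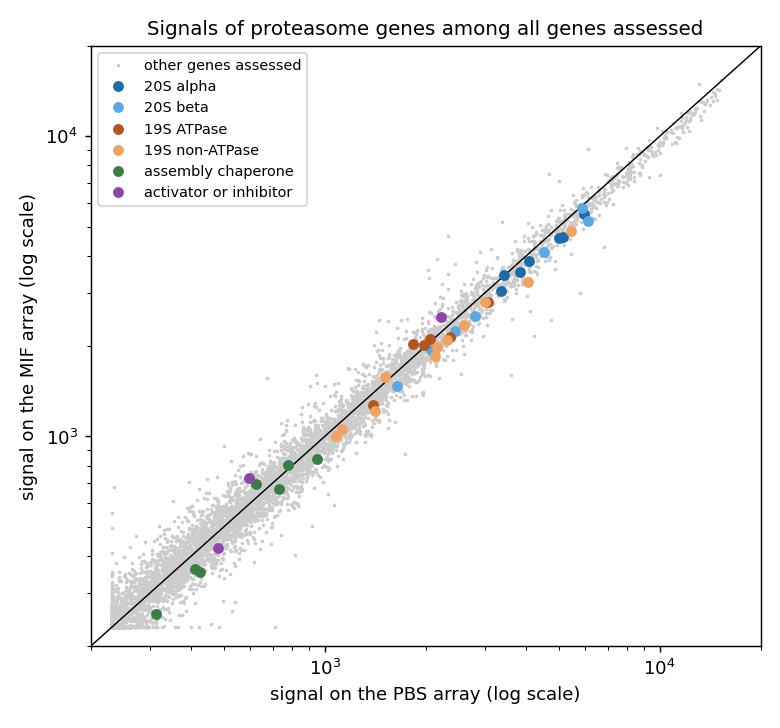
Signal on the MIF array against signal on the PBS array, both on a log scale and with no unit, for the 41 proteasome genes in colours by role and the other assessed genes in grey, with values under the floor of 232 drawn at the floor and a line where both arrays are equal. Most coloured points sit just under the line, and Psme3 (596 and 726) and Psme4 (2225 and 2496) sit above it.

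The members lay close together. Their 25th and 75th percentiles of difference were -0.16 and -0.08, a width of 0.08, where those of all genes assessed were 0.21 apart. The SD over genes was 0.13 for the members and 0.19 for all genes. Most members had bright probe sets, and bright genes as a whole were lower on the MIF array. The assessed genes were divided by mean signal into 4 groups of nearly equal size. In the brightest group, which held 26 of the members, the median difference of all 1459 genes was -0.04, and 63.1% were lower. Its 25th and 75th percentiles were 0.18 apart, with an SD of 0.17. The 26 members in that group had a median of -0.13, and 21 of them were lower. In the second brightest group the 8 members had a median of -0.12 against -0.01 for all genes there. The 3 members in the dimmest group, Psmd9, Psmg4 and Psmg3, were all lower, and the 4 in the group above it were split evenly. With the trend of difference with signal removed by a loess curve, the members' median was -0.10 and that of all genes 0.0010.

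**Figure D2:**
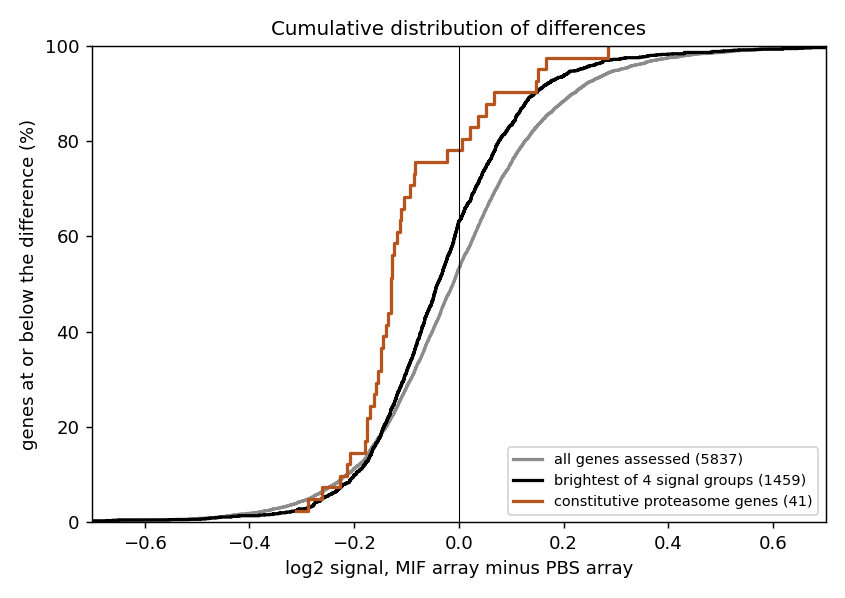
Cumulative share of genes (%) at or below each log2 difference, MIF minus PBS, for the 41 proteasome genes, all 5837 genes assessed and the 1459 of the brightest signal group, over differences from -0.7 to 0.7. The proteasome curve climbs steeply between -0.16 and -0.08 and passes 0 at 78.0%, where the brightest group is at 63.1% and all genes at 53.3%.

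The epithelial part of the tissue label was borne out by its markers, which were not chosen to tell colon from other epithelium. All 8 epithelial markers listed, such as Epcam (8889 and 8830) and Krt8 (14619 and 13874), were bright on both arrays, and their summed signal was 68526 with PBS and 65281 with MIF. On the MIF array 7 of these markers were lower and 1 higher, with a median log2 difference of -0.08. In the brightest group of genes 63.1% were lower. Among markers of other cell types, those of lymphocytes were lower and those of fibroblasts higher on the MIF array, and those of myeloid cells were nearly equal. Of 6 lymphocyte markers, 4 were in the table, and their summed signal was 1469 with PBS and 747 with MIF. Of these, Gzma (813 and 403) and Gzmb (541 and 282) were above the floor, whereas Cd3g and Cd8a were under it on both arrays. All 6 fibroblast markers were in the table, with a summed signal of 747 and 1834. Of these, Dcn (235 and 678) was above the floor on both arrays, and Col3a1 and Vim on the MIF array only. Col1a1, Col1a2 and Lum were under it on both. All 5 myeloid markers were in the table, with a summed signal of 1692 and 1749, and the brightest of them, Cd14, differed by -0.01. Cd14 was above the floor on both arrays and Lyz2 with MIF only, whereas Csf1r, Itgam and Adgre1 were under it on both. The sums take in signals under the floor. The single B and plasma cell marker and the single endothelial marker in the table were under the floor on both arrays. The part of these shifts in the proteasome differences was not tested. In such bulk samples, fewer cells of a type and less RNA per cell cannot be told apart.

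Promoter sequence was examined as a feature that the choice of members did not use. RefSeq promoters of the mouse build GRCm38.p6, from 250 bases before to 50 after the annotated start, were matched by gene ID for 34 of the 41 genes, with 36 promoters. No entry was matched for Psmb1, Psmb2, Psmb7, Psmc3, Psmd3, Psmd7 and Psmg2. The string CCGGAAG, the core bound by ETS family transcription factors, was found on either strand in 15 of 36 promoters (41.7%), of 14 genes. It was in 20.1% of the 6225 promoters of assessed genes and in 8.86% of all 32851 promoters of this length. The median GC content was 57.8% in member promoters and 61.0% in those of assessed genes. The choice of strings to report was made after a larger set had been searched.

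Of the 18 matches, 8 began within 50 bases before the start, 7 further upstream, from -132 to -53, and 3 after it. The 8 are shown in windows of 30 bases as examples of the string in core promoters. Each is read along the gene's strand, 5′ to 3′, with CCGGAAG or its reverse complement CTTCCGG in capitals.
Psma6, chr12:55398812-55398841, plus strand: ccgccggtgctCCGGAAGcagtagccataa
Psmc1, chr12:100110163-100110192, plus strand: tggtggatgcaCTTCCGGcggtggcgattt
Psmc2, chr5:21786712-21786741, plus strand: gcgcggagctaCTTCCGGtggggaagagaa
Psmd2, chr16:20651615-20651644, plus strand: tccgcagggcgCTTCCGGtctggaggacaa
Psmd6, chr14:14120972-14121001, minus strand: cagagacgcgaCCGGAAGtcagactggcgg
Psmd11, chr11:80428593-80428622, plus strand: cgagggcgggtCTTCCGGgtgtgtgtttcc
Psmd12, chr11:107479500-107479529, plus strand: tgagcgggcgaCTTCCGGtgcgagtgacga
Psmd13, chr7:140882377-140882406, plus strand: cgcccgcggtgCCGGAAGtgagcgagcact
Genes with and without the string had nearly the same median. The 14 genes with it had a median log2 difference of -0.13, with 10 lower, and the 20 without it had a median of -0.13, with 15 lower. A match is a description of letters and does not show a bound site.

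Other strings were closer to their background. TGACNNNGC, the core of the element read by Nfe2l1, the transcription factor that restores proteasome genes when the protease is inhibited, was in 6 of 36 member promoters (16.7%) and in 14.3% of those of assessed genes. These 6 genes were Psmb5, Psmb6, Psmc6, Psmd9, Psmd12 and Psme4, of which 3 were lower, with a median log2 difference of -0.03. Of the 28 genes without the string 22 were lower, with a median of -0.13. The fully specified form TGACTCAGC, which the same search would also take in, was in 0 of 36 promoters and in 0.434% of those of assessed genes. CCAAT was in 33.3% of member promoters against 37.8%, the GC box GGGCGG in 55.6% against 64.9%, TATAAA in 8.33% against 7.60%, and GCATGCGC, the core bound by nuclear respiratory factor, in 8.33% against 5.75%. All were searched on both strands. Of the genes with a GC box 12 of 20 were lower, with a median of -0.11, and of those without it 13 of 14, with a median of -0.14. The same splits over all genes assessed were not made, so no background stands beside these counts. Whether the strings go with the differences was not tested.

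The 250 bases before the start are given for Psmd14 and Psme3, because these genes had the lowest and the highest difference among the members. Capitals mark the ETS core, the GC box and the CCAAT string on either strand.
Psmd14, chr2:61711444-61711693, plus strand: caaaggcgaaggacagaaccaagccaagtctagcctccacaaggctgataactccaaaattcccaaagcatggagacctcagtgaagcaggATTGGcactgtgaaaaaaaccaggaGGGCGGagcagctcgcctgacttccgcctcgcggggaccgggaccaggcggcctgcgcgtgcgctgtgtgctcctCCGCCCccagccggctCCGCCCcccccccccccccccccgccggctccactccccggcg
Psme3, chr11:101315963-101316212, plus strand: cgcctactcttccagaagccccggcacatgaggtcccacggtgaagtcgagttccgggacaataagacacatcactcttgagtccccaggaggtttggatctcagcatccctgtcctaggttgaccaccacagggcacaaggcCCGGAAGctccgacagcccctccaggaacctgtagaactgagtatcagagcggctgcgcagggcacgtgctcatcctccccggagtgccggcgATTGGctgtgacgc
The Psmd14 stretch held 3 GC boxes, 1 CCAAT and 0 CCGGAAG, and the Psme3 stretch 1 CCAAT, 1 CCGGAAG and 0 GC boxes.

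The alpha subunits of the core form its outer rings, and their tails close the entry pore. Of the 8 listed genes 7 were in the table. All but Psma1 were lower on the MIF array, with a median log2 difference of -0.12. Psma6 was lowest, at a signal of 5162 with PBS and 4628 with MIF (-0.16). Psma7, whose product lies in the same ring, went from 3352 to 3042 (-0.14) and Psma5 from 5011 to 4580 (-0.13). Psma4 (3823 and 3522), Psma3 (5954 and 5513) and Psma2 (4060 and 3832) had differences of -0.12, -0.11 and -0.08. Psma1 had nearly equal signals, at 3433 and 3445. Second probe sets above the floor were lower too, at -0.18 for Psma6 and -0.17 for both Psma5 and Psma7. The Psma6 probe set used can cross-hybridise, while its second one, at 3861 and 3406, is not of that kind.

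The beta subunits form the inner rings. All 7 in the table were lower, with a median log2 difference of -0.14 and a range of -0.23 to -0.02. Among those without a proteolytic site, Psmb4 went from 6129 to 5239 (-0.23), Psmb3 from 2809 to 2510 (-0.16), Psmb2 from 1643 to 1476 (-0.15) and Psmb1 from 4506 to 4102 (-0.14). The second probe set of Psmb3 gave -0.24, at 2782 and 2357. Psmb4 was not settled between its probe sets, because its second one, of a kind that can cross-hybridise, went from 3746 to 4147 (0.15). For Psmb1, both other probe sets were under the floor.

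The catalytic subunits were among the beta genes that differed least. Psmb6, which carries the caspase-like site, had signals of 2451 and 2250 (-0.12). Psmb5, which carries the chymotrypsin-like site, had signals of 2075 and 1946 (-0.09). Psmb7, which carries the trypsin-like site, had signals of 5861 and 5768 (-0.02). Each was measured by a single probe set. Their induced counterparts were lower by more. Psmb9, which takes the place of Psmb6, went from 2550 to 1613 (-0.66), Psmb8, which takes that of Psmb5, from 4027 to 2938 (-0.45), and Psmb10, which takes that of Psmb7, from 4289 to 3470 (-0.31). In each of the 3 pairs the induced subunit was lower by more than its constitutive counterpart, with a gap between their log2 differences of -0.54, -0.36 and -0.28 in this order. The signals of different probe sets do not give the ratio of both forms in the cell, and the difference between pair members was not tested.

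**Figure D3:**
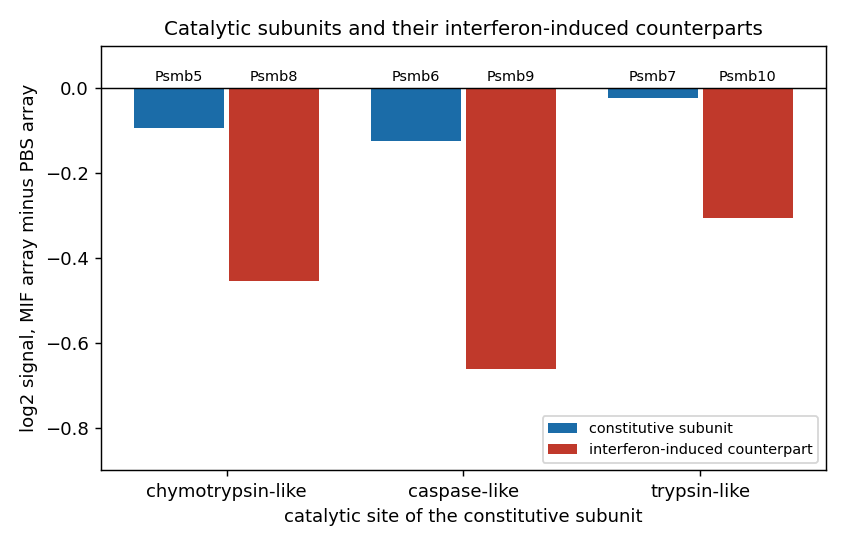
Log2 difference in signal, MIF array minus PBS array, of each constitutive catalytic subunit (blue bars) and its interferon-induced counterpart (red bars), by the site of the constitutive subunit, with 1 array a group and so no error bars. The blue bars reach -0.12 at most and the red bars -0.31 to -0.66.

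The ATPases of the base were divided in direction, with 3 lower and 3 higher and a median log2 difference of -0.05. They form a hexameric ring that pulls the substrate into the core. Psmc3 had signals of 2368 and 2143 (-0.14), Psmc1 of 1397 and 1276 (-0.13) and Psmc2 of 3076 and 2812 (-0.13, and -0.06 on a second probe set). The Psmc2 probe set used can cross-hybridise, while its second one is not of that kind. Without probe sets that can cross-hybridise, the median of the ATPases was -0.02. Psmc5, at 1983 and 2011, and Psmc6, at 2066 and 2119, differed by 0.02 and 0.04. With each array centred on its median they were at -0.017 and -0.0019, so the split of 3 and 3 depended on the scaling. A further Psmc6 probe set, which can cross-hybridise, went from 623 to 779 (0.32). The probe sets of Psmc4 opposed each other with nearly equal sizes, at 1836 and 2038 (0.15) for the brighter and 1430 and 1287 (-0.15) for the dimmer.

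The other subunits of the regulatory particle had a median log2 difference of -0.15, and 10 of 11 were lower. Psmd14, the metalloprotease that cuts the ubiquitin chain from the substrate, had signals of 4056 and 3268, 1.24-fold lower, on a single probe set. Psmd7, its partner in the lid, went from 1410 to 1217 (-0.21). Psmd4, a receptor for ubiquitin chains, went from 2139 to 1851 (-0.21) and by -0.09 on its second probe set. The large scaffold subunits Psmd1 and Psmd2, which bind shuttle factors and other ubiquitin receptors, differed by -0.13 (2162 and 1979) and -0.10 (3005 and 2796).

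The lid's horseshoe of scaffold subunits followed the same direction with 1 exception. Psmd11 had 4 probe sets above the floor, and all were lower, from -0.34 to -0.08. Its brightest one, which can cross-hybridise, had signals of 5424 and 4822 (-0.17). Psmd8 (2319 and 2092) and Psmd6 (2610 and 2355) both had a difference of -0.15, although the second probe set of Psmd6 went from 2310 to 2495 (0.11). Psmd3 went from 1083 to 1001 (-0.11) and Psmd13 from 1127 to 1062 (-0.09, and -0.18 on a second probe set, which can cross-hybridise). Psmd12 was the member that was higher, at 1510 and 1583 (0.07).

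**Figure D4:**
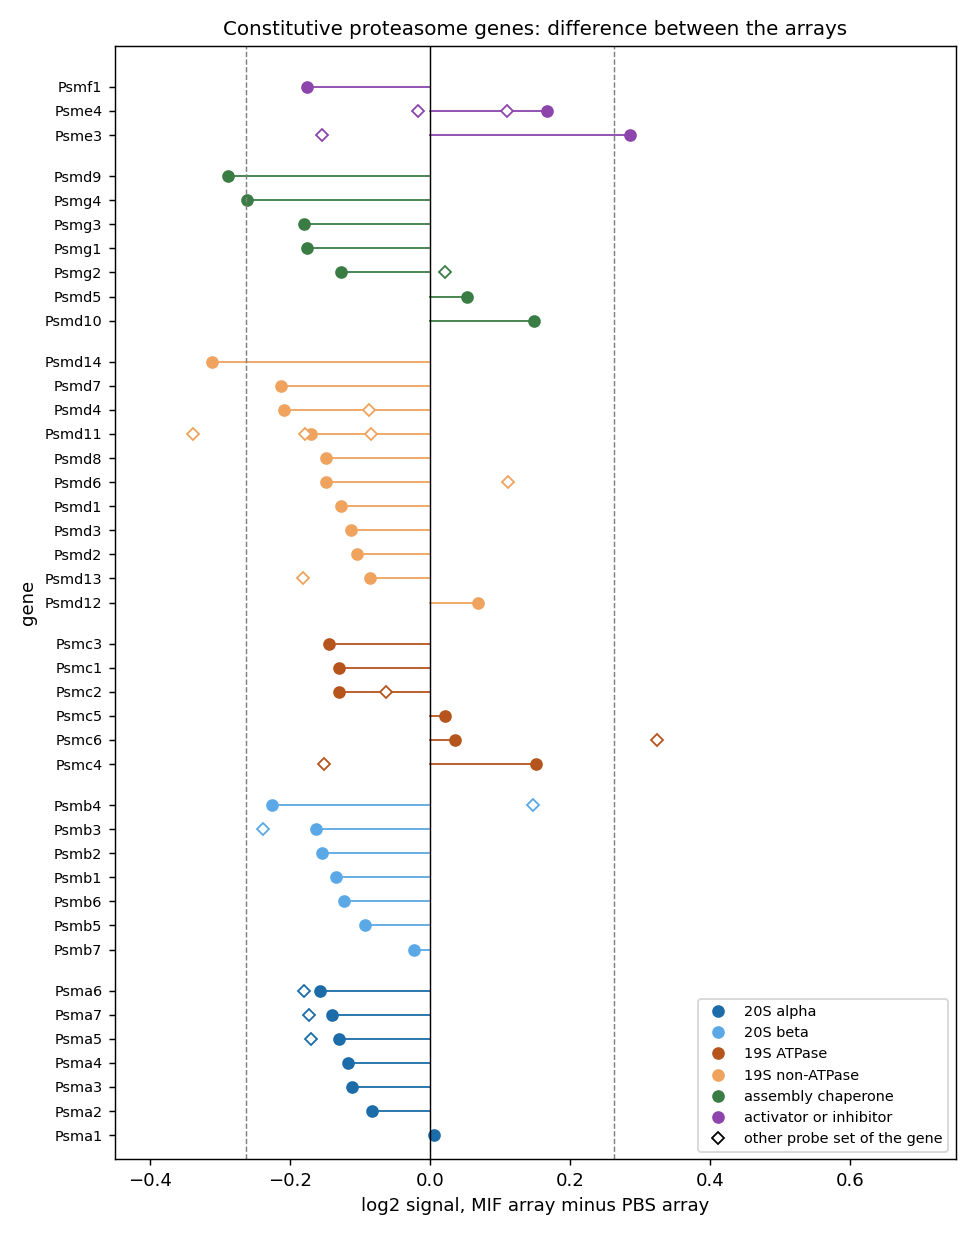
Log2 difference in signal, MIF array minus PBS array, of each of the 41 assessed genes (filled points, from the brightest probe set) by role in the complex, with other probe sets of a gene above the floor as open diamonds and dashed lines at 1.2-fold. All beta subunit genes lie left of 0, the ATPase genes lie on both sides, and the filled points of Psmd14 (-0.31), Psmd9 (-0.29) and Psme3 (0.28) pass the dashed lines.

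Genes for assembly chaperones, which bind intermediates and are released before the complex is mature, had dimmer probe sets. Their median log2 difference was -0.18, with 5 of 7 lower. The chaperones of the alpha ring work as pairs, Psmg1 with Psmg2 and Psmg3 with Psmg4. Psmg4 went from 424 to 353 (-0.26), Psmg3 from 410 to 362 (-0.18), Psmg1 from 947 to 838 (-0.18) and Psmg2 from 728 to 667 (-0.13, and 0.02 on a second probe set). All of them were lower on their brightest probe set. The chaperones of the ATPase ring were divided. Psmd9 went from 313 to 257, 1.22-fold lower and near the floor of 232, whereas Psmd10, also known as gankyrin, went from 625 to 693 (0.15) and Psmd5 from 776 to 805 (0.05).

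The alternative regulators of the core were divided, with both activators higher on their brightest probe set and the inhibitor lower. Psme3, the nuclear activator PA28 gamma, had signals of 596 and 726, 1.22-fold higher, and Psme4, the activator PA200, had signals of 2225 and 2496 (0.17). Neither was the same on all its probe sets. The second one of Psme3 went from 564 to 506 (-0.16). Those of Psme4 gave 0.11 and -0.02, and without probe sets that can cross-hybridise its difference was -0.02. Psmf1, a protein that inhibits the core in vitro, went from 481 to 426 (-0.18). Its other probe sets were under the floor on both arrays, and with the mean of its probe sets the difference was -0.039.

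Separate probe sets of a gene showed how far single differences can be read. Of the 15 members with at least 2 assessed probe sets, 8 were lower on all, Psmc6 was higher on all, and 6 had probe sets of opposite sign (40%, against 42.2% of 1800 genes overall). The opposed ones were Psmb4, Psmc4, Psmd6, Psme3, Psme4 and Psmg2. The SD of the log2 difference between probe sets of a gene was 0.14 over these members and 0.15 over all genes, as large as most of the differences described. Counted by probe set, 45 of 59 above the floor were lower (76.3%), with a median of -0.13, against 49.7% of 8151 named probe sets. Such agreement comes from the same RNA on the same arrays and does not measure the spread between cell preparations.

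Genes related to the proteasome but outside the members had a median near that of all genes assessed. A list of 36 genes, covering control by Nfe2l1, further assembly factors, enzymes bound to the proteasome, shuttle factors, the p97 unfoldase with its cofactors, and ubiquitin with its activating enzymes, had 24 in the table. None of its 6 genes for ubiquitin and activating enzymes was among them. All 24 were assessed, with 13 lower, 11 higher and a median log2 difference of -0.01. None reached 1.2-fold. By group the median ran from -0.08 for the proteasome-bound genes, which include Sem1, to 0.04 for shuttle factors. Nfe2l1 itself had signals of 616 and 622 (0.01), and Nfe2l2, a related factor of the oxidative stress response, had signals of 2523 and 2733 (0.12). The lowest were the proteasome-bound deubiquitinase Uchl5 (1084 and 928, -0.22), the ubiquitin ligase Ube3a (1705 and 1525, -0.16) and Pomp, the chaperone that guides core assembly (3310 and 2977, -0.15). Sem1, a small lid subunit outside the Psm names, went from 3669 to 3461 (-0.08). The highest were Nsfl1c and Ufd1, cofactors of p97, at 0.20 and 0.15, and Nfe2l2. Vcp, which encodes p97, had signals of 3641 and 3553 (-0.04). The PA28 subunit gene Psme1, which interferon induces with the immunoproteasome, went from 4263 to 3693 (-0.21).

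Other complexes with many subunits, picked after the values of the proteasome had been seen, were read in the same way. The COP9 signalosome, whose subunits are related in sequence to those of the proteasome lid, had a median log2 difference of -0.06 over 8 assessed genes, with 5 lower. The TRiC chaperonin had a median of -0.05 with 6 of 7 lower, and the translation factor eIF3, which shares subunit folds with the lid, had a median of -0.09 with 8 of 11 lower. The medians of all 3 lay between that of the brightest group of genes and that of the proteasome. The shares of genes lower were 62.5%, 85.7% and 72.7% in this order. They were 78.0% for the proteasome, 63.1% in the brightest group and 53.3% among all genes assessed. With 1 array a group, no test of the difference between complexes was possible.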

How the data were processed

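The table holds 1 signal intensity per probe set and array, as the authors processed and deposited it. The range of the values shows a linear scale. Per the labels' protocols, biotinylated cRNA was made from total RNA by the standard Affymetrix protocol. How probes were summarised, corrected for background and scaled stays without a statement in the sources used here. Of 15340 probe sets, 61 controls were left out, and 14049 had 1 gene symbol in GEO's platform annotation, 490 several and 740 none. Array medians were 337 (PBS) and 346 (MIF), so columns were used as deposited. Signals under the floor were raised to it, and a gene under it on both arrays was not assessed. Differences are log2 MIF minus PBS. The rule for named genes took in every assessed member. The members and lists were chosen with earlier results of these data known. The steps were tested on simulated data. Alternatives were other scalings, floors, probe set rules and fold thresholds, a loess trend (span 0.3), and symbols updated through the Entrez ID. Python 3.11.15 ran pandas 2.3.3 and numpy 2.4.6, with statsmodels 0.14.6 for the loess curve and figures from matplotlib 3.10.9.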

Additional observations from a re-analysis of the deposited data

How the results depend on the processing

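No paired analysis was possible because each group has 1 array, and for the same reason no array could be left out. The members' median stayed between -0.17 (median centring) and -0.10 (loess trend removed). It was below that of all genes in each of the 9 alternatives of scaling, floor, probe set and symbol. The share of assessed members lower was highest with median centring, at 85.4%, against 62.1% of all genes. That share was lowest, at 75.6%, with quantile normalization and with the loess trend removed, against 54.5% and 49.8% of all genes. A median was called moved past 0.05, a count past 1.5 times. The counts at 1.2-fold lower and higher, 2 and 1, were 4 and 0 with median centring, 1 lower with the floor at the 60th percentile, and 1 and 0 with the mean of probe sets. They were 17 and 4 at 1.1-fold, and 0 and 0 at 1.5-fold. Shares of all genes at a fold threshold are given above only for the main setting, at 1.2-fold and 1.5-fold. The other counts have no such share beside them. The assembly chaperone median of -0.18 was -0.037 with the floor at the 60th percentile, where the dimmest members were not assessed, and -0.11 with the mean of probe sets. The median of the 3 activator and inhibitor genes was 0.17. With the floor at the 60th percentile Psmf1 was not assessed, and the median of Psme3 and Psme4 alone was 0.23. Over the 3 genes it was 0.065 with the mean of probe sets, and -0.017 once probe sets that can cross-hybridise were left out. With the mean of probe sets, Psmb1 was at 0.011, which takes in 2 probe sets under the floor, and Psmc4 at -0.00058. Leaving out probe sets that can cross-hybridise put Psme4 at -0.017. Median centring put Psma1 at -0.033, Psmc5 at -0.017 and Psmc6 at -0.0019, all of which were higher in the main setting. Psmb7, lower in the main setting, was at 0.029 with quantile normalization and at 0.030 with the loess trend removed. Signal over background limits Psmd9, Psmg3 and Psmg4 most.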
